A study of Mus musculus with 14 samples.

Results

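The general astrocyte markers described here are 10 genes, Aqp4, Aldh1l1, Gja1, Gjb6, S100b, Aldoc, Sox9, Glul, Mlc1 and Acsbg1. They were found by exact symbol, and all 10 of the 10 listed were among the 13130 genes of the authors' deposited comparison. RNA came from the nucleus accumbens (the ventral part of the striatum, in the reward circuit) of C57BL/6 mice whose Tet1 alleles both carry loxP sites (TET1 loxp/loxp). In 7 of them an adeno-associated virus carrying the Cre recombinase (AAV-Cre) was injected into the region, and 7 controls of the same genotype received AAV-GFP, which carries green fluorescent protein. RNA was taken 4 weeks later and each of the 14 mice was sequenced as its own library. The serotype and promoter of the viruses, and so the cells that express Cre, and the age of the mice are not stated in the labels. The comparison asks what loss of Tet1, whose product oxidises 5-methylcytosine in DNA, does to transcripts of the region, in a study of stress responses.

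Astrocytes take up potassium, glutamate and water released around active synapses, convert glutamate to glutamine and pass it back to neurons, and contact blood vessels with endfeet. They are joined to one another by gap junctions, through which ions and metabolites spread. The markers cover these tasks and are used to recognise astrocytes in normal as well as diseased tissue, unlike the genes of astrocyte reaction to injury. Several are not exclusive to astrocytes: Sox9 and S100b are also made by ependymal cells, which line the ventricles, and Glul and S100b by oligodendrocyte lineage cells.

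No general astrocyte marker changed past the threshold between AAV-Cre and AAV-GFP. An adjusted p under 0.05 was reached by 0 of the 10, against 0 of all 13130 genes (0%), and an unadjusted p under 0.05 also by 0 of the 10, against 5.15% of all genes (limma's moderated test as deposited). The log2 fold changes, AAV-Cre over AAV-GFP, ran from -0.11 for Gjb6 to 0.19 for Sox9 in the authors' deposited table. Of the 10, 6 stood above 0 and 4 below, against 59.1% of all genes above 0. Their median was 0.06, where the median of all genes was 0.02. In bulk tissue a change in the number of astrocytes and a change in RNA per astrocyte cannot be told apart.

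**Figure D1:**
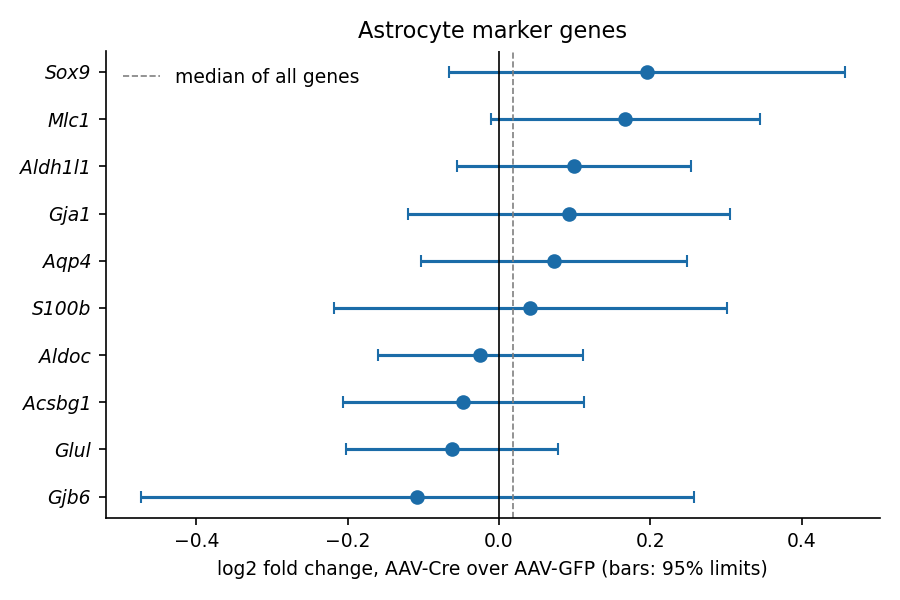
Log2 fold change of each astrocyte marker gene (points, horizontal axis) with 95% limits (bars), ordered by fold change, from 7 AAV-Cre and 7 AAV-GFP mice. The limits of all 10 genes include 0, and the widest belong to Gjb6; the dashed line is the median of all genes.

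The 95% limits give the range of changes that the values allow for each gene. All 10 intervals included 0, and all 10 lay inside a log2 change of 0.5 in either direction, which is 1.41-fold. The share of all genes inside that bound was not computed, so it does not set the markers apart. The median standard error was 0.083 for the markers and 0.079 for all genes. The lowest limit was -28.0% (Gjb6) and the highest 37.2% (Sox9). The median distance from fold change to limit was a log2 value of 0.18. The deposited table holds no value per library, so the depth, the level in each mouse and the overlap of the groups cannot be given, and differences between one marker and another could not be tested. For the targeted gene itself, Tet1, the authors' deposited table lists a log2 value of -0.13 ± 0.11 (standard error throughout) and an adjusted p of 0.921. Deletion cannot be read from it, since uninfected cells keep the gene and the labels do not name the floxed exons.

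Promoter windows of 4 markers are shown because Tet1 acts on methylated CpG dinucleotides, so the CpGs in a promoter are among the places where its enzyme activity could fall. The windows are RefSeq's on GRCm38.p6, from 250 bases before to 50 after a transcript start, written 5′ to 3′ on the gene's own strand with each CpG in capitals. Glul (chr1:153899679-153899978, plus strand) was the marker window with the most CpGs, and Mlc1 (chr15:88978504-88978803, minus strand) belongs to the marker with the smallest p. Gja1 (chr10:56377050-56377349, plus strand) and Gjb6 (chr14:57133562-57133861, minus strand) belong to the gap junction pair.
Glul: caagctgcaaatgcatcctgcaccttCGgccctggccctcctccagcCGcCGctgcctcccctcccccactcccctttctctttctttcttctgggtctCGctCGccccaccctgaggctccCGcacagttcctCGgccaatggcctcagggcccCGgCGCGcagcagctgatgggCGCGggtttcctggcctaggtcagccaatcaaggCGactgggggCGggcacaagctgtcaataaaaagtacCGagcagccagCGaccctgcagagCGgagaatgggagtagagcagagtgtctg
Mlc1: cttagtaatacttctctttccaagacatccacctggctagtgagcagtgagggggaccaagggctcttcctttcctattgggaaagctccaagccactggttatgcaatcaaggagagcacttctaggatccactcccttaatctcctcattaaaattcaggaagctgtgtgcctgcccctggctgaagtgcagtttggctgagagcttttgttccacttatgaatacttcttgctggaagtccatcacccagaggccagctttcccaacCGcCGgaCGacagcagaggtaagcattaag
Gja1: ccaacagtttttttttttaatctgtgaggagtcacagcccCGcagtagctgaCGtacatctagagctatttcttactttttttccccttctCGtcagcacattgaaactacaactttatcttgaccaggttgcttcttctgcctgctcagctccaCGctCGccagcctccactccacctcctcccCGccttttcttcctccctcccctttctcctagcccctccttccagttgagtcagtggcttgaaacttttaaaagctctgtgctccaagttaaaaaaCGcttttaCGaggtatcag
Gjb6: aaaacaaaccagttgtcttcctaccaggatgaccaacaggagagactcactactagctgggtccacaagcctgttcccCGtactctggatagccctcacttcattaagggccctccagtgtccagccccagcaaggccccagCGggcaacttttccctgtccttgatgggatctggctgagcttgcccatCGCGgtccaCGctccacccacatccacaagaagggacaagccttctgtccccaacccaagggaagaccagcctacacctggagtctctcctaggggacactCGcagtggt

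The Glul window held 17 CpGs, the Gja1 window 8, the Gjb6 window 6 and the Mlc1 window 3. In the Mlc1 window all 3 lie close to the end, near the transcript start, whereas those of Glul are spread along its length. RefSeq windows were matched for 8 of the 10 markers, in 9 windows since Aldoc has 2 starts; Sox9 and Aqp4 had no entry. Among those not printed, Aldh1l1 had 9 CpGs, Aldoc 8 and 3, S100b 3 and Acsbg1 2. All 9 windows held fewer than 20, the median of 12200 windows of genes in the table (46.8% of which lie below it), and 8 of the 9 held fewer than 12, as did 24.8% of all windows. Low counts were not confined to these genes: 12 of 16 oligodendrocyte marker windows and 11 of 14 microglia marker windows also held fewer than 12. DNA methylation was not measured in these libraries, so nothing is known here of the state of these CpGs.

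**Figure D2:**
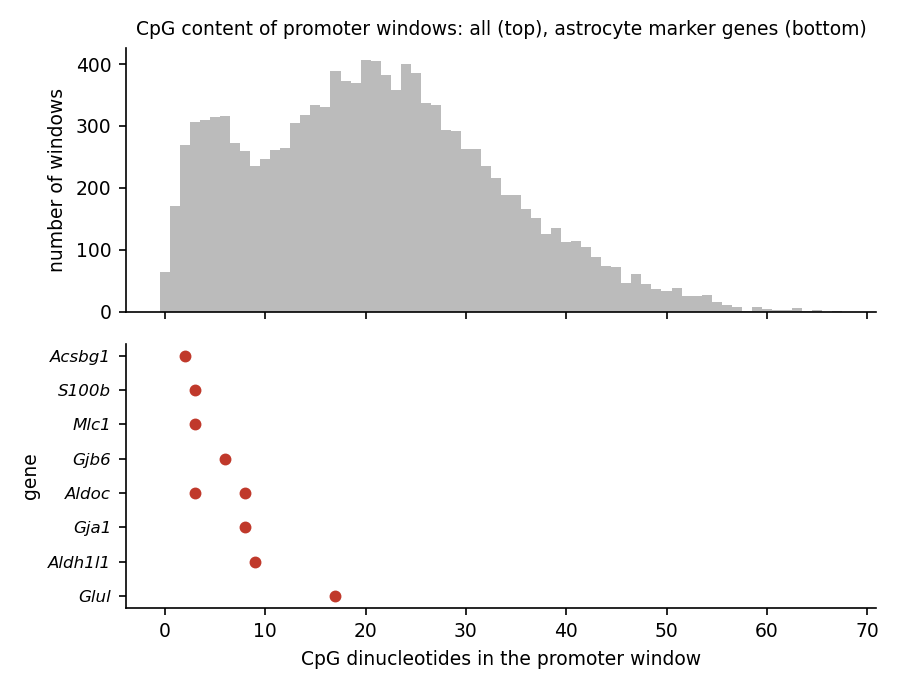
Number of CpG dinucleotides per promoter window, for all windows of genes in the table (top, bars count windows) and for each astrocyte marker gene with a RefSeq window (bottom, 1 point per window). The marker windows hold 2 to 17 CpGs, on the low side of the median of 20.

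Of the genes of water and ion balance, Mlc1 had the smallest p of the 10. Mlc1 encodes an endfoot membrane protein that works with the adhesion protein of Hepacam and is mutated in a human leukoencephalopathy with subcortical cysts. The gene, ENSMUSG00000035805.9, spans chromosome 15, 88955884 to 88979007, on the minus strand (GRCm38, as for the positions that follow). Its log2 fold change was 0.17 ± 0.08 in the authors' deposited table, 12.3% above AAV-GFP with limits of -0.75% to 27.0%. Its unadjusted p was 0.0639 and its adjusted p 0.919, which placed it at rank 889 among all genes by p. Aqp4 encodes the water channel of astrocyte endfeet (ENSMUSG00000024411.9, minus strand of chromosome 18, 15389496 to 15410982). It stood at 0.07 ± 0.08 in the authors' deposited table, with limits of -6.86% to 18.8% and an adjusted p of 0.940. The partners of Mlc1 showed no shift past a threshold either: Hepacam had a log2 fold change of 0.06 ± 0.07 and the chloride channel gene Clcn2 -0.07 ± 0.12 in the authors' deposited table.

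The 2 gap junction markers had opposite signs, each within its own error. Gja1 encodes the more abundant astrocyte connexin (ENSMUSG00000050953.9, plus strand of chromosome 10, 56377330 to 56402513). Its log2 fold change was 0.09 ± 0.10 in the authors' deposited table, with limits of -7.97% to 23.5% and an adjusted p of 0.939. Gjb6, which encodes the other main astrocyte connexin (ENSMUSG00000040055.8, minus strand of chromosome 14, 57123303 to 57133611), was the lowest of the 10 at -0.11 ± 0.17 in the authors' deposited table. Its limits ran from -28.0% to 19.6% and its adjusted p was 0.958. The interval of Gjb6 contains the value of Gja1, and their difference was not tested.

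Among the enzymes of amino acid, folate and energy metabolism, 3 of 4 stood slightly below 0. Glul encodes glutamine synthetase, which turns glutamate and ammonia into glutamine (ENSMUSG00000026473.11, plus strand of chromosome 1, 153899944 to 153909723). It stood at -0.06 ± 0.07 in the authors' deposited table, -4.22% with limits of -13.1% to 5.55% and an adjusted p of 0.939. Aldoc, the aldolase isoenzyme gene of brain glycolysis (ENSMUSG00000017390.11, plus strand of chromosome 11, 78322968 to 78327781), stood at -0.02 ± 0.06 in the authors' deposited table, with limits of -10.5% to 7.98%. These were the narrowest limits of the 10. Acsbg1, which encodes an enzyme that activates long-chain fatty acids (ENSMUSG00000032281.7, minus strand of chromosome 9, 54604877 to 54661870), stood at -0.05 ± 0.07 in the authors' deposited table, with limits of -13.3% to 8.04%. Aldh1l1, the gene of a folate-oxidising dehydrogenase and a widely used marker of all astrocytes (ENSMUSG00000030088.11, plus strand of chromosome 6, 90486427 to 90600203), was the fourth, at 0.10 ± 0.07 in the authors' deposited table. Its limits were -3.75% and 19.2% and its adjusted p was 0.921. Exons of Aldh1l1 overlap those of the antisense gene Gm15756 by 499 bases, and exons of Glul overlap those of Teddm2 on the opposite strand by 116 bases. On the same strand, Gm45901 shares 105 exonic bases with Aldh1l1 and Mir8114 shares 93 with Glul. Where these genes were annotated in the counting, reads in the same-strand bases cannot be assigned to one gene by position alone. The same holds for the opposite-strand bases unless reads were counted by strand, which is not stated. None of the overlapping genes is in the deposited comparison, and the annotation used for counting is not stated.

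Sox9 and S100b, a regulator and a calcium-binding protein, completed the markers. Sox9 encodes a transcription factor that astrocytes keep expressing in the adult brain (ENSMUSG00000000567.5, plus strand of chromosome 11, 112782224 to 112787760). It had the highest fold change of the 10, 0.19 ± 0.12 on the log2 scale in the authors' deposited table, which is 14.5% with limits of -4.50% to 37.2% and an adjusted p of 0.921. S100b (ENSMUSG00000033208.7, plus strand of chromosome 10, 76253853 to 76261159) stood at 0.04 ± 0.12 in the authors' deposited table, with limits of -14.1% to 23.2% and an adjusted p of 0.976. Of 10 ependymal genes listed, 6 were measured, these 2 among them. The other 4 were all above 0, between 0.37 and 0.83 on the log2 scale, where 59.1% of all genes stood above 0. Of the 4, 1 (Rarres2) had an unadjusted p under 0.05, against 4.62% of all genes higher with such a p. The value of 0.83 ± 0.46 belongs to Dynlrb2, whose mean log2 level was only -1.21. The part of ependymal RNA in the values of Sox9 and S100b was not tested.

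**Figure D3:**
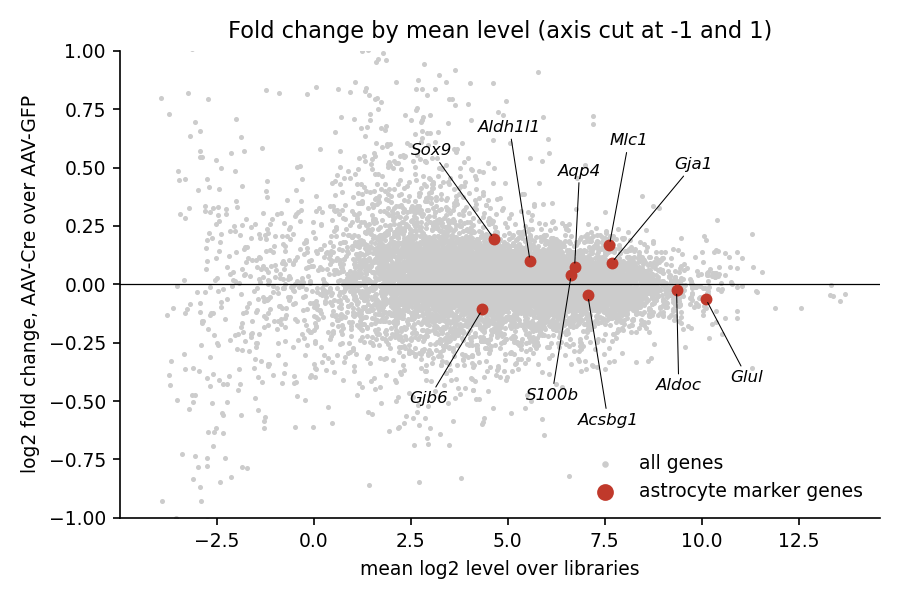
Log2 fold change (vertical axis) against the mean log2 level over libraries (horizontal axis) for all genes (grey) and the astrocyte marker genes (red, named); 119 genes beyond a log2 fold change of 1 in either direction are outside the axis. The markers lie within the band of genes of like level, between -0.11 and 0.19.

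The markers differ widely in abundance, and the 8 most abundant lay above the median level of all genes. Mean log2 levels ran from 4.35 for Gjb6 to 10.1 for Glul in the authors' deposited table, where the median of all genes was 4.91. Divided by exonic length, on a linear scale read as CPM per kilobase, Glul came first at 331.0 and Aldoc next at 200.3. Mlc1 followed at 70.3, S100b at 67.1 and Acsbg1 at 37.2. Gja1 stood at 20.0, Aqp4 at 17.0, Aldh1l1 at 10.6, Gjb6 at 7.62 and Sox9 at 6.07. These are levels over both groups together, and their spread between mice is not in the table, so neighbours in the order, such as Mlc1 and S100b, cannot be called different. The exonic length joins the exons of all annotated transcripts of a gene, which lowers the value of genes with long alternative ends.

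Fold changes of most markers were less precise than that of the median gene at the same level, some only slightly. The standard error of 8 of the 10 was above the median of the 500 genes nearest in mean level. For Gjb6 it was 2.29 times that median (0.17 against 0.07), for S100b 1.91 times and for Sox9 1.76 times. Of the 500 nearest genes, 92.8% had a smaller standard error than Gjb6, 93.4% a smaller one than S100b and 85.6% a smaller one than Sox9. For Acsbg1 and Aldh1l1 the ratio was only 1.10 and 1.14, and 60.8% and 63.4% of the nearest genes had a smaller standard error. The 2 markers below the median were the most abundant, Aldoc (0.85 times) and Glul (0.88 times).

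**Figure D4:**
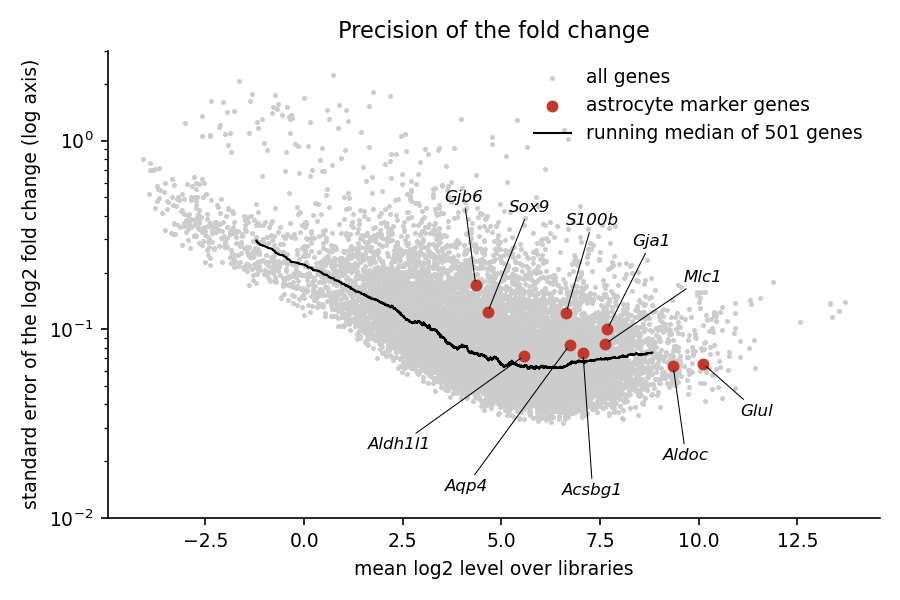
Standard error of the log2 fold change (vertical log axis) against the mean log2 level (horizontal axis) for all genes (grey) and the astrocyte marker genes (red, named), with a running median over genes (line). Gjb6, Sox9 and S100b lie well above the line, and Aldoc and Glul below it.

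Other genes by which astrocytes are known lay on both sides of 0. In 6 further lists, with 87 genes measured, 46 stood above 0 and 41 below (52.9% above), and the median log2 fold change was 0.01. An unadjusted p under 0.05 was found for 3 genes, or 3.45% of the 87 against 5.15% of all genes, and an adjusted one for 0. All 3 were above 0. They were the cystine-glutamate exchanger gene Slc7a11 (0.33 ± 0.13), the glutamate transporter gene Slc1a3 (0.20 ± 0.08) and the lipoprotein gene Apoe (0.28 ± 0.12), each with an adjusted p of 0.919 in the authors' deposited table. Microglia can also express Apoe.

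The list for transmitter uptake was evenly split. Of its 10 genes for handling glutamate, GABA and related amino acids, 5 stood above 0 and 5 below. Not all encode uptake transporters: Grm3, a receptor gene, is among them. Beside Slc7a11 and Slc1a3, the metabotropic receptor gene Grm3 had a log2 fold change of -0.05 ± 0.06 in the authors' deposited table. The main astrocyte glutamate transporter gene, Slc1a2, stood at -0.03 ± 0.09 in the authors' deposited table; it was named after its value was seen. Of 9 genes of water, potassium and chloride handling, 2 stood above 0 and 7 below, none with an unadjusted p under 0.05, and their median was -0.03. The sodium bicarbonate cotransporter gene Slc4a4 (-0.09 ± 0.07) had the smallest p of them, and the orphan receptor gene Gpr37l1 stood at 0.06 ± 0.08 in the authors' deposited table.

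For energy and lipid metabolism, 9 of 18 genes stood above 0 and 9 below, with a median log2 fold change of 0.01. Apart from Apoe, the acyl-CoA synthetase gene Acsl6 stood at -0.13 ± 0.07, the glucose transporter gene Slc2a1 at 0.15 ± 0.09 and the lactate transporter gene Slc16a1 at 0.11 ± 0.09 in the authors' deposited table. Endothelial cells also express Slc2a1 and Slc16a1, and all 16 endothelial markers stood above 0 (median 0.18, 3 with an unadjusted p under 0.05), against 59.1% of all genes above 0 and 4.62% higher with such a p; their part in these values was not tested. Of 16 transcription factor genes 9 stood above 0 and 7 below, with a median of 0.08 and none with an unadjusted p under 0.05. Those of smallest p were the inhibitors of differentiation Id3 (0.28 ± 0.14) and Id4 (0.26 ± 0.15), then Rfx4 (0.14 ± 0.09) and Sox2 (0.14 ± 0.09) in the authors' deposited table.

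Of 25 secreted and surface marker genes 15 stood above 0 and 10 below, and their median log2 fold change was 0.01. The clusterin gene Clu (0.13 ± 0.06), the cystatin C gene Cst3 (0.19 ± 0.11), the sphingosine phosphate receptor gene S1pr1 (0.13 ± 0.08) and the carboxypeptidase gene Cpe (0.11 ± 0.07) came first by p, as listed in the authors' deposited table, and none was under 0.05. The dystrophin complex, which anchors the water channel at endfeet, had 9 genes measured with a median of 0.02 and none under 0.05. The dystrophin gene Dmd stood at -0.13 ± 0.08, Dag1 at 0.07 ± 0.05, the sarcoglycan genes Sgcb at -0.06 ± 0.04 and Sgce at 0.12 ± 0.09 in the authors' deposited table. Of 20 other connexin and pannexin genes the table holds 6, with a median of -0.01. Panx2 stood at -0.22 ± 0.13, the neuronal connexin gene Gjd2 at -0.22 ± 0.18, Panx1 at 0.06 ± 0.06 and Gjc3 at -0.06 ± 0.11 in the authors' deposited table.

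Most genes of astrocyte reaction stood above 0 in the same mice. Of 28 listed, 20 were measured, and 18 of the 20 stood above 0, against 59.1% of all genes. Higher with an unadjusted p under 0.05 were 12, against 4.62% of all genes in that direction. The adjusted threshold was passed by 0, and the median log2 fold change was 0.64. Iigp1 (1.79 ± 0.42), Gbp2 (1.53 ± 0.39), C3 (3.09 ± 0.85) and H2-D1 (1.34 ± 0.37) were the 4 of smallest p, with values as listed in the authors' deposited table; microglia and leukocytes can express these genes too. Gfap, the intermediate filament gene often used as an astrocyte marker, stood at 0.69 ± 0.34 in the authors' deposited table, and its limits of -0.04 to 1.42 on the log2 scale include 0. The difference between the genes of this list and the general markers was not tested. Which cells the RNA of the listed genes came from was not tested either.

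**Figure D5:**
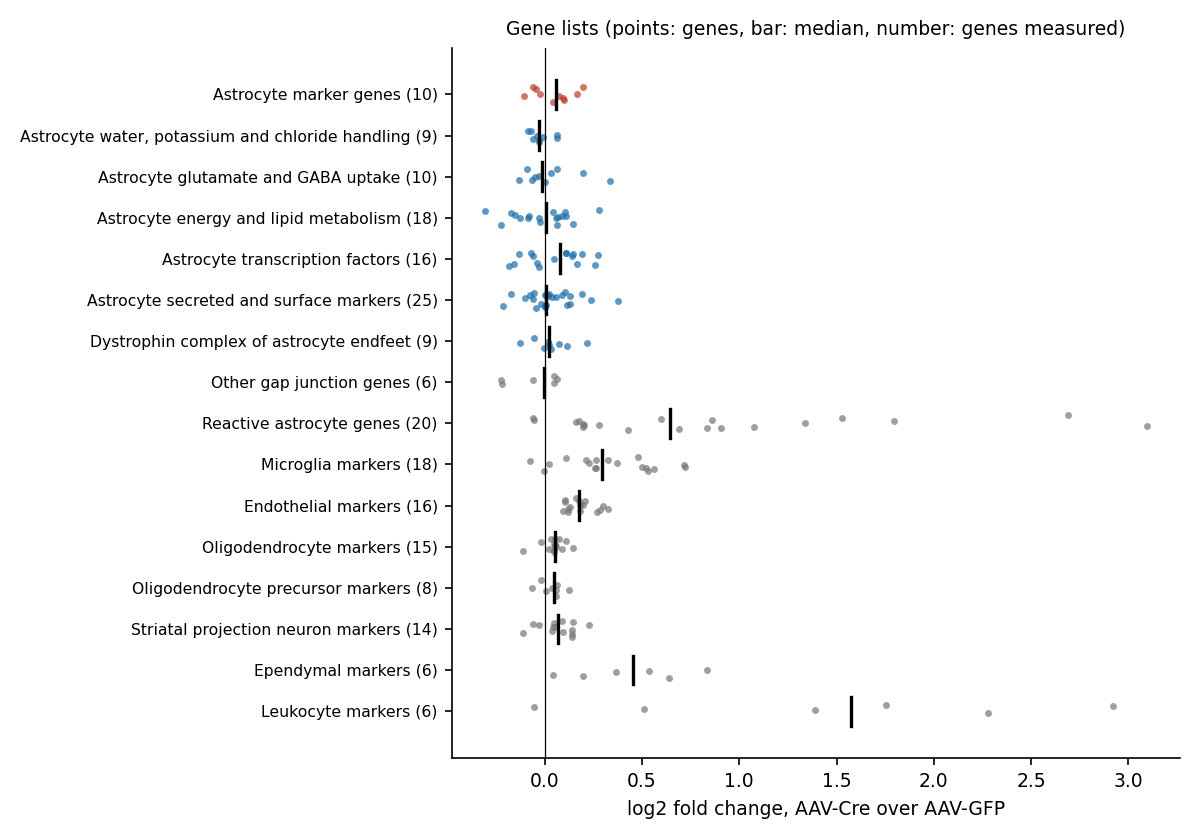
Log2 fold change of every measured gene (points, horizontal axis) in the astrocyte marker genes (red), 6 further astrocyte lists (blue) and other lists (grey), with the median of each list (bar) and the number measured in parentheses. The astrocyte lists centre between -0.03 and 0.08, and the reactive astrocyte list centres at 0.64.

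Median log2 fold changes of the lists for other cell types ran from 0.05 to 1.57, and 0 of their genes passed the adjusted threshold. Differences between the lists were not tested. Of 18 microglia markers 16 stood above 0 and 9 of these had an unadjusted p under 0.05 (median log2 fold change 0.29), where 59.1% of all genes stood above 0 and 4.62% were higher with such a p. The microglia genes of smallest p were Ctss (0.72 ± 0.25), C1qa (0.72 ± 0.25), Aif1 (0.50 ± 0.18) and C1qc (0.53 ± 0.20), as listed in the authors' deposited table. Of the 6 leukocyte markers measured, out of 15 listed, 5 were higher with an unadjusted p under 0.05, against the same 4.62% of all genes, and the median log2 fold change was 1.57. The sixth, Cd4, stood at -0.05 ± 0.17 in the authors' deposited table. Its mean log2 level was 5.82, where the other 5 ran from -1.52 for Trac to 6.69 for Igkc. Which cells the Cd4 RNA came from was not tested. Oligodendrocyte markers (median 0.05 over 15 genes), their precursors (0.05 over 8) and striatal projection neuron markers (0.07 over 14) lay close to the median of 0.06 of the general astrocyte markers, and none of their genes had an unadjusted p under 0.05.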

How the data were processed

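Polyadenylated RNA of 14 nucleus accumbens samples, 7 AAV-Cre and 7 AAV-GFP, was sequenced with 1 barcoded library per mouse, prepared with an Illumina TruSeq mRNA kit from Trizol RNA, per the labels' protocols. Alignment tools and builds in the submitters' processing notes are Bowtie2 2.1.0, TopHat2 2.0.9, mm10 and GRCm38. How reads were counted, normalized, filtered and modelled is not given in the sources used here. Deposited by the authors were 2 log2 columns per the file headers (mean level and fold change of each gene), 2 score columns (log-odds and moderated t) and 2 p-value columns (before and after adjustment), under the names limma gives them. The direction is taken from the name of the table. Linear mean levels sum to 991364, so levels are read as close to log2 CPM. Depth per library is unknown.

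Dividing each log2 fold change by its t gave the standard error, and 95% limits use the 15.1 degrees of freedom that give the deposited p-values. The adjusted p-values are Benjamini-Hochberg over all 13130 genes. Gene positions and lengths came from GENCODE M21 on GRCm38. List genes absent by symbol were looked up by stable ID. The calculations were tested on simulated data. The members and lists were chosen with earlier results of these data known. Named genes are the 10 members and, per list, up to 4 of smallest p, of which 1 is not reported here; Gfap and Slc1a2 were added after their values were seen, and for the ependymal, endothelial, leukocyte, oligodendrocyte, precursor and projection neuron lists counts are given in place of 4 names. Alternatives were other thresholds, a filter on mean level and centring of fold changes. Software was matplotlib 3.10.9, scipy 1.17.1, pandas 2.3.3 and numpy 2.4.6 under Python 3.11.15.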

Additional observations from a re-analysis of the deposited data

How the results depend on the processing

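At an adjusted threshold of 0.1 the deposited table held 0 genes, and with a mean log2 level of at least 0 (12697 genes, adjusted again) 0 genes passed and the lowest adjusted p was 0.782; 676 genes had an unadjusted p under 0.05. Among the astrocyte markers, an unadjusted threshold of 0.1 took in 1 gene, Mlc1, and 0.01 took in 0. The share of all genes under 0.1 or 0.01 was not computed, so these counts do not set the markers apart. The median log2 fold change of the markers was 0.06, 0.04 as a mean, and 0.04 after subtracting the median of all genes. Subtracting that median, or the median of the 500 genes nearest in level, moved single markers by at most 0.03 and turned the sign of 0 of the 20 values so obtained. No paired analysis was possible because the deposited table holds no value per library and the replicate numbers are only names, and leaving out each mouse in turn was not run for the same reason. Depth per library is unknown, so its share in the width of the intervals cannot be given.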
